A study of Mus musculus with 24 samples.

Results

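A microRNA (miRNA) hairpin yields a pair of short RNAs, one from each arm of its stem, and the arm that was recovered less often when the miRNA was first catalogued was given a star, or passenger strand, name. The star strands on the array were taken as all probes in which every miRNA name ends in a star, with the exception of miR-712*. By that rule 113 of the 655 probes were star strands. Of these, 110 had exactly 1 probe for the main strand of the same hairpin, carrying the same name without the star. A further 2 probes named more than 1 hairpin (let-7c-2*/let-7a* and miR-467a*/miR-467d*), and 1 (miR-125b*) had no probe with the plain name. Some star strands shared a main strand, so the 110 pairs held 106 main strand probes.

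The arrays profiled RNA from the carotid intima of male C57Bl6 mice that were 6 to 8 weeks old. All mice had a partial ligation of the left carotid artery, which left a single outflow branch open and gave low, oscillating flow, and the right carotid of the operated mice was the control. There were 24 single-colour (Cy3) Illumina bead arrays, 6 for each artery at 12 h and 6 for each artery at 48 h after surgery. The inner layer was flushed out with a phenol lysis reagent, so the cells recovered are defined by the flush and not by a sort. No sham-operated artery was among the groups, so flow, surgery and side of the body cannot be told apart. The labels do not say whether numbered samples were separate animals or pools, so p-values reflect only how far these samples spread, which may be technical. In such samples, fewer cells of a type and less RNA per cell cannot be told apart.

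Hairpins are trimmed by Drosha in the nucleus and Dicer in the cytoplasm, and the resulting duplex is loaded into an Argonaute protein. Argonaute keeps one strand as the guide, favouring the end of the duplex that is easier to open and a strand that begins with U or A, and the passenger strand is usually discarded and degraded. Both strands come from one transcript, so a change in transcription moves both, while loading or decay can move one alone. Some passenger strands are kept and repress targets of their own, with a seed that differs from that of the main strand. In endothelium, the best known case is the strand pair of miR-126, whose arms are both functional and which is named without a star on this array.

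The sequences below belong to the 4 hairpins on which the results turn: the star strand that rose at each time, and the hairpins whose arms changed differently. The hairpin lines come from RefSeq (GRCm38.p6), with both arms in capitals; the arm lines are the targets given in the deposited annotation, with the seed (bases 2 to 8) in capitals. In all 4 the star strand was the 3p arm.
Mir872 hairpin: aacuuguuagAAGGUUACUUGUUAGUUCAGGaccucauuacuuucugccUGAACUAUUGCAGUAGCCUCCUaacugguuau
miR-872*: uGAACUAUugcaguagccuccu
miR-872: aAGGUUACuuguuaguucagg
Mir330 hairpin: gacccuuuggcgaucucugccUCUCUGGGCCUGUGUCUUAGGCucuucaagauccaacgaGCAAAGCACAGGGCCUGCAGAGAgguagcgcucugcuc
miR-330*: gCAAAGCAcagggccugcagaga
miR-330: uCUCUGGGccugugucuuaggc
Mir146b hairpin: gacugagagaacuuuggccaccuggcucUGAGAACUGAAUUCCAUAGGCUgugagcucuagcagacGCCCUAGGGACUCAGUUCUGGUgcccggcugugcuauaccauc
miR-146b*: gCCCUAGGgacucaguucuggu
miR-146b: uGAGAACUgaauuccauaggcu
Mirlet7d hairpin: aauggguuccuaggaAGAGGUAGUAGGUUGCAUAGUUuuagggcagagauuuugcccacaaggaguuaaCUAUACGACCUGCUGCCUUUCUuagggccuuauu
let-7d*: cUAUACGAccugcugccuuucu
let-7d: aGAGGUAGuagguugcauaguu

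In GRCm38.p6, miR-872* lies at chr4:94665206-94665227 on the plus strand, within the gene Ift74. miR-330* lies at chr7:19181525-19181547 on the plus strand, within Eml2. miR-146b* lies at chr19:46342828-46342849 on the plus strand, within Gm36493. let-7d* lies at chr13:48536024-48536045 on the minus strand, and no other gene of that annotation enclosed its hairpin.

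The star strands differed from the main strands of the same hairpins in base composition, which the rule did not use. C was the first base of 41 of 113 star strands (36.3%) and of 10 of 106 main strands (9.4%). U was the first base of 20 star strands (17.7%) and of 58 main strands (54.7%). The median GC content was 50.0% for star strands and 43.5% for main strands, at a median length of 22 bases in both. RefSeq hairpins held 98 of the 113 targets, 40 on the 5p arm and 58 on the 3p arm, and 101 targets were identical to a RefSeq mature miRNA. The 113 star strands carried 102 different seeds, none of which was the seed of any of the 106 main strands. Only 9 seeds were shared, by 20 star strands, for example by those of miR-30a and miR-30e. The star strands of let-7, a family whose main strands hold one common seed and restrain growth genes such as Hmga2, are set out here because their seeds are not common to the family.
let-7b*: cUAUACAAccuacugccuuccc
let-7c-2*/let-7a*: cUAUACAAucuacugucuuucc
let-7f*: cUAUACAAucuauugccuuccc
let-7c-1*: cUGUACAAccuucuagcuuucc
let-7g*: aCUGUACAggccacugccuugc
let-7i*: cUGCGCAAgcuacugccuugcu
The first 3 of these shared a seed, and let-7d*, let-7c-1*, let-7g* and let-7i* each had their own. Probes were 16 to 22 bases long and lay within their targets, and 12 pairs of star strands were within 3 edits of each other. How far the probes of these also read the near-identical strand was not tested.

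A probe counted as detected on an array when its deposited detection p was under 0.05. Over all 655 probes, 364 to 431 were detected per array at 12 h and 335 to 410 at 48 h, and median raw signals were 332 to 1030 and 119 to 500. The 12 h arrays of an artery came in repeats: array 1 correlated with 4, array 2 with 5 and array 3 with 6 by rank at 0.986 or above, against at most 0.874 for any other arrays. Each such pair was averaged and counted as 1 sample, leaving n = 3 per artery. At 48 h n was 6. Both endothelial markers (miR-126-3p and miR-126-5p) and both markers of smooth muscle (miR-145 and miR-143) were detected on every array. The fibroblast-enriched miR-199a-3p and miR-214 were too, so the flushed RNA may not be endothelial alone. The epithelial marker miR-200b was also detected on every array, so detection by itself does not give the cell type. The summed smooth muscle signal ranged from 14.28 to 14.83 (log2) on the left and 14.74 to 14.91 on the right at 12 h, and from 14.75 to 15.15 and 14.94 to 15.31 at 48 h. The summed endothelial signal ranged from 15.41 to 15.47 and 15.45 to 15.47 at 12 h, and from 12.78 to 14.48 and 11.78 to 14.81 at 48 h. Limma called no member of any marker list at either time. The summed leukocyte signal (miR-223, miR-142-3p, miR-142-5p and miR-150) did not overlap at 48 h, with 14.24 to 14.80 on the left and 11.75 to 14.17 on the right, and all 3 members tested were above 0. For miR-150 the fitted change was 0.51 ± 1.15, but its median was lower on the left (11.50 against 12.43) and 1 right sample lay at 5.09. The summed neuronal signal (miR-9 and miR-124) at 12 h was 8.26 to 11.95 on the left and 6.77 to 6.84 on the right. At that time miR-9 was detected on all 6 left arrays and on no right array, and miR-124 on no array of either artery. The higher sum on the left was therefore that of miR-9 alone. The summed epithelial signal was 11.77 to 11.95 on the left and 12.06 to 12.29 on the right at 12 h, and 11.95 to 14.07 and 10.83 to 12.01 at 48 h. The 2 epithelial members tested at 48 h went opposite ways. miR-200c differed by 4.37 ± 1.23, and miR-200b by -0.49 ± 0.32 with 6 of 6 left samples below the right mean. miR-200a, not tested, stood at 12.80 in left sample 3 and was detected on no other array at 48 h. The part of these cells in the changes below was not tested.

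About 1 in 2 star strands was detected in a sample, on both arteries and at both times. At 12 h, 62.5 ± 4.92 star strands were detected in the left carotid and 58.5 ± 1.32 in the right (mean ± SD, n = 3). At 48 h the numbers were 59.7 ± 3.61 and 57.7 ± 6.28 (n = 6), and the groups overlapped. As shares these were 55.3%, 51.8%, 52.8% and 51.0% of the star strands. The other 542 probes were detected at 64.4%, 59.8%, 58.7% and 57.8%, and the main strands of the same hairpins at 75.9%, 71.4%, 70.3% and 69.7%. Star strands were therefore detected less often than the main strands of their hairpins, and less often than the other probes, in all 4 groups.

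Over the 24 arrays, 28 star strands (24.8%) were detected on every array, 13 (11.5%) on none and 72 on some. Counts of arrays here and below take each array singly, although the 12 arrays of 12 h were 6 samples in repeat. Of the other probes 35.4% were detected on every array and 10.5% on none. Signals could jump between arrays of one group. At 12 h 15.0% of all 113 star strands spanned more than 10-fold in raw signal within the left group and 13.3% within the right, and at 48 h 26.5% and 28.3%. The ranges at 12 h cover 3 samples per artery and those at 48 h cover 6, so the times are not to be compared. For the other probes these shares were 9.2%, 14.8%, 28.4% and 32.1%, so a wide range within a group was not particular to star strands.

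Set against its own main strand, the star strand was detected on fewer arrays in 59 of the 110 hairpins, on as many in 23 and on more in 28. Both strands were detected on all 24 arrays in 18 hairpins. The main strand was detected on all 24 in 47, and the star strand was then also detected on all 24 in 38.3% of them. In 3 hairpins the main strand was on every array and the star strand on none. The opposite arrangement also occurred. miR-881* was detected on 24 arrays and miR-881 on 2, miR-186* on 23 and miR-186 on 5, and miR-483*, from an intron of Igf2, on 13 and miR-483 on none. The arms of miR-200c, an epithelial miRNA that represses Zeb1 and Zeb2, gave 24 arrays for the star strand and 8 for the main strand, all 8 of them at 48 h. For miR-295, of the embryonic stem cell cluster, miR-295* was detected on every array while miR-295 was detected on all 12 arrays at 12 h and none at 48 h. miR-10b, from the HoxD cluster, gave 24 arrays for its star strand, against 12 for the main strand at 12 h and 3 at 48 h. These are detections of single probes of different length and base composition, and the level of one probe was not set against that of another.

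**Figure D1:**
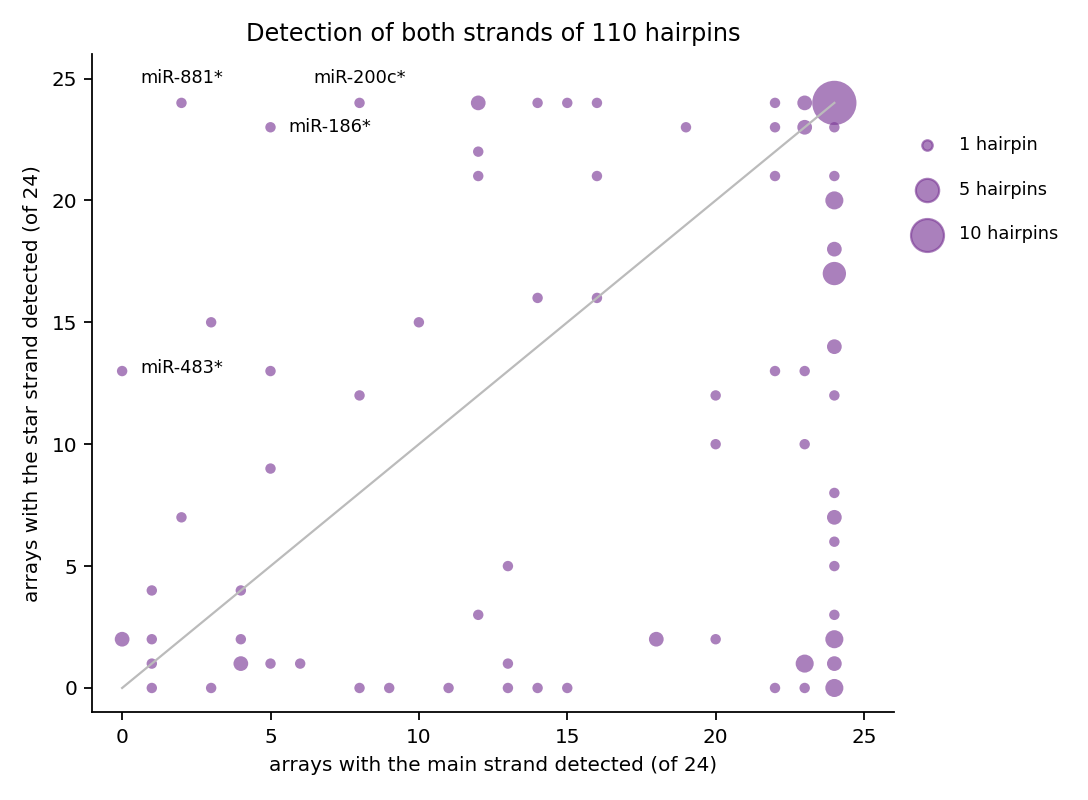
Number of arrays (of 24) on which the star strand was detected (vertical axis) against the number for the main strand of the same hairpin (horizontal axis), with the area of a point giving the number of hairpins. Of 110 hairpins, 59 lie below the line of equal detection, 23 on it and 28 above it, with miR-881* (24 against 2) and miR-200c* (24 against 8) among those far above.

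The star strand probes with the highest mean signal included let-7d*, miR-20a* and miR-7a* at both times. let-7d* stood first at both, with 13.59 to 14.09 across the 12 h arrays and 13.88 to 14.38 across the 48 h arrays (normalized log2 signal). Next at 12 h were miR-140*, from the hairpin in Wwp2 known for its role in cartilage (13.33 to 13.84), miR-20a*, of the growth-promoting miR-17-92 cluster (12.50 to 13.86), miR-7a* (11.75 to 14.39) and miR-30a* (12.65 to 13.20). At 48 h they were miR-20a* (10.71 to 14.27), miR-24-2* (11.91 to 13.62), miR-742* (11.63 to 13.24) and miR-7a* (11.38 to 14.38). A signal depends on the probe as well as on the RNA, so the order of probes is no order of abundance.

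The star strands of miR-30a and miR-30e are nearly the same RNA but behaved differently at 48 h, and they are shown for that reason.
miR-30a*: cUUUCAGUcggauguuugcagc
miR-30e*: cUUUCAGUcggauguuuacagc
They differ by G18A, counted from 1 at the 5′ end with the base of miR-30a* first. The probes covered bases 1 to 18 of miR-30a* and 1 to 20 of miR-30e*, so both reach the differing base. At 12 h both were detected on all 12 arrays, with means of 12.83 ± 0.13 and 13.04 ± 0.14 (left and right, SD, n = 3) for miR-30a* and 12.76 ± 0.23 and 12.66 ± 0.38 for miR-30e*. At 48 h miR-30e* was again detected on all 12 arrays (12.18 ± 0.50 and 12.65 ± 0.22, n = 6), whereas miR-30a* was detected on 2 left and 3 right arrays (6.32 ± 0.66 and 8.23 ± 2.21). The main strand of miR-30a was detected on every array at both times, while that of miR-30e was detected on 12 arrays at 12 h and on 4 at 48 h. The 2 times were deposited and normalized as separate tables, so time and table cannot be told apart here.

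The comparison of left and right at 12 h asked which star strands differ early after flow is disturbed. Of the 113 star strands, 63 were detected on at least 3 arrays of at least 1 artery and were tested among 430 probes. miR-872* was the only one that passed (limma, Benjamini-Hochberg adjusted p under 0.05), and it was higher on the left. In the background of all probes tested, 0.465% were called. miR-872* measured 9.94, 10.89 and 11.03 in the left samples and 6.79, 7.28 and 7.29 in the right samples (normalized log2 signal). The groups did not overlap, and the probe was detected on all 6 left arrays and on none of the 6 right arrays. The fitted difference was 3.50 ± 0.44 (log2, SE; limma adjusted p = 0.0497, n = 3 per artery), and since the right arrays were not above background the rise was at least 7.32-fold.

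The call for miR-872* lies at the threshold. It held in 1 of the 6 fits that each left out 1 sample (3.30 to 3.84, adjusted p from 0.0256 without left sample 1 to 0.109 without right sample 3), and ended without any of the other samples, with no background correction (2.58, adjusted p = 0.0774), with the authors' processed values (2.61, adjusted p = 0.0696) and with no detection filter (adjusted p = 0.188). The call also ended with the sample number fitted as a block. At 48 h miR-872* did not pass. Left samples ranged from 7.63 through a median of 10.31 to 12.98, right samples from 8.28 through 10.14 to 12.18, the arteries overlapped and all 12 arrays detected the probe (0.17 ± 1.12, adjusted p = 0.953).

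Of the other star strands at 12 h, 4 had an unadjusted p under 0.05, and in 3 of them the arteries did not overlap. miR-93*, from the miR-106b-25 cluster in Mcm7, measured 10.61, 11.00 and 11.60 on the left and 9.32, 9.48 and 9.61 on the right, with no overlap (1.60 ± 0.38, adjusted p = 0.251). let-7d* measured 13.59, 13.68 and 13.78 on the left and 13.89, 13.95 and 14.00 on the right, again with no overlap and the smallest spread of these (-0.26 ± 0.06, adjusted p = 0.251). miR-742* measured 5.65, 8.69 and 10.84 on the left and 11.85, 12.09 and 12.34 on the right (-3.70 ± 1.28, adjusted p = 0.399), so its left samples lay apart from each other as well as below the right. miR-26b*, whose main strand targets Ezh2, measured 7.80, 9.55 and 9.56 on the left and 5.67, 5.81 and 8.11 on the right, where the highest right sample lay above the lowest left sample (2.44 ± 0.89, adjusted p = 0.413). None of these 4 passed the test.

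The remaining star strands named at 12 h had wider errors relative to their change. miR-503*, from an X-linked cluster tied to cell cycle arrest, was detected on 4 left arrays and on none on the right (10.75, 5.70 and 8.89 against 6.34, 5.70 and 5.74), at least 1.63-fold higher but with an adjusted p of 0.497. miR-193* measured 11.10, 11.92 and 11.76 against 10.67, 11.27 and 10.70 (0.72 ± 0.36, adjusted p = 0.497). miR-674* measured between 5.69 and 7.33 on the left and between 5.70 and 11.96 on the right (-3.34 ± 1.72, adjusted p = 0.497). miR-708*, from an intron of the teneurin gene Tenm4, differed by -0.69 ± 0.40 and miR-302a*, of the embryonic miR-302 cluster, by -0.71 ± 0.41 (both adjusted p = 0.512). Neither overlapped between arteries, but with each array scaled to its 75th percentile in place of quantile normalization the differences were 0.04 for miR-708* and -0.04 for miR-302a* (both adjusted p = 0.992).

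Over the class at 12 h, 5 of 63 star strands (7.94%) had an unadjusted p under 0.05, beside 9.53% of all probes tested. The arteries did not overlap for 7 of 63 (11.1%), 2 higher and 5 lower on the left, beside 19.1% of all probes tested (6.05% higher and 13% lower). Besides those above, these included miR-125b*. Fitted changes were above 0 for 21 and below 0 for 42, with a median of -0.21 (log2), while over all 430 probes 55.6% were below 0 with a median of -0.05. That lean depends on the scaling: under the 75th percentile scaling, 26 of 63 star strands were below 0 with a median of 0.09, and 40.0% of all probes with a median of 0.07. The median SD within a group was 0.58 for star strands and 0.46 for all probes tested.

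**Figure D2:**
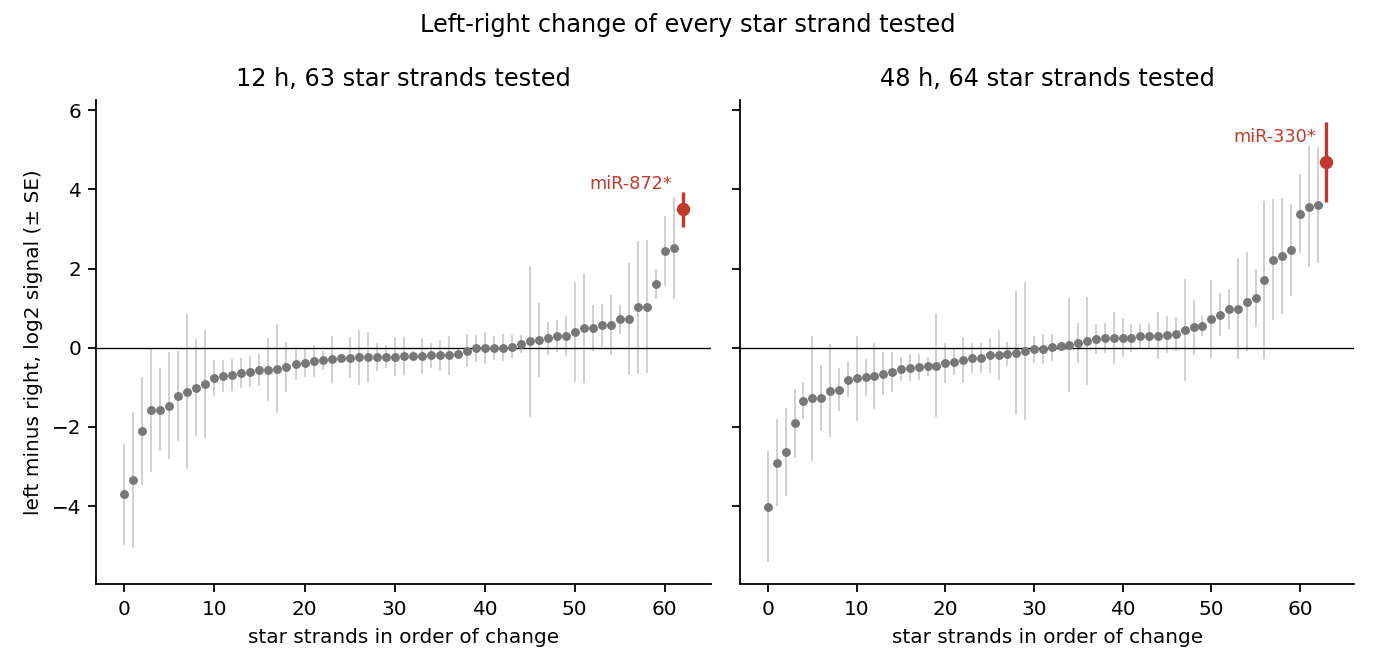
Left minus right change (log2, vertical axis) of every star strand tested, in order of change (horizontal axis), at 12 h and 48 h, with bars of 1 SE and the strand that passed the test in red. miR-872* stands at 3.50 at 12 h and miR-330* at 4.70 at 48 h, and most other strands lie within 1 log2 unit of 0.

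At 48 h, the time point the study was set up for, 64 star strands were tested among 407 probes and miR-330* was the only one that passed, again higher on the left. In the background 2.95% of probes were called, 1.97% higher on the left. In the 6 left samples miR-330* ranged from 11.25 through a median of 12.06 to 12.72, and in the 6 right samples from 5.39 through 5.88 to 10.78. The left samples were uniform and all above the right, where 4 samples lay near the floor and 2 lay close below the left group; these 2 were the right arrays that detected the probe. The difference was 4.70 ± 1.01 (log2, SE; limma adjusted p = 0.0277, n = 6 per artery). Raw signals were 2514 to 8049 on the left and 54 to 2522 on the right.

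The call for miR-330* held in 7 of the 12 fits that left out 1 sample (4.32 to 5.39, adjusted p from 0.0134 to 0.0671). It ended without left sample 1, 4 or 5 or right sample 1 or 2, and when right samples 1 and 4, in which the fewest probes were detected, were both left out (3.89, adjusted p = 0.0895). The call also ended with the sample number fitted as a block. At 12 h miR-330* was detected on 2 arrays of each artery and was not tested.

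The other star strands with the smallest p at 48 h did not pass. let-7i* ranged from 7.10 through 10.28 to 11.82 on the left and from 5.28 through 5.88 to 10.23 on the right, every left sample lay above the right mean, and 1 right sample overlapped the left (3.39 ± 0.99, adjusted p = 0.102). miR-17*, of the miR-17-92 cluster, was tight on the left (12.42 to 13.32) and split on the right (5.10 to 13.06), with 3 right arrays above background (3.61 ± 1.47, adjusted p = 0.215). miR-30c-1* was high in 5 of 6 left samples and in 2 of 6 right samples (3.56 ± 1.53, adjusted p = 0.254). miR-24-2*, of the miR-23a cluster, was above the right mean in 6 of 6 left samples at a much smaller difference (0.55 ± 0.25, adjusted p = 0.272; 0.36 under the 75th percentile scaling).

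Lower on the left at 48 h, miR-877*, from the mirtron of Abcf1 (an intron that is itself the hairpin), was detected on 1 left array and on 5 right arrays. It ranged from 5.33 through 5.44 to 11.96 on the left and from 5.55 through 11.42 to 12.41 on the right, with 1 sample of each artery on the other's side (-4.01 ± 1.41, adjusted p = 0.137). miR-293*, of the embryonic stem cell cluster, ranged from 7.72 through 8.65 to 9.05 on the left and from 8.72 through 9.73 to 11.63 on the right, with 6 of 6 left samples under the mean of the right (-1.34 ± 0.47, adjusted p = 0.137). miR-674* was below the right mean in 5 of 6 left samples (-2.90 ± 1.09, adjusted p = 0.159), miR-22*, whose main strand is abundant in muscle, was detected on 2 left and 4 right arrays (-2.63 ± 1.11, adjusted p = 0.237), and miR-30a* differed by -1.91 ± 0.88 (adjusted p = 0.272). For miR-674* the sign was the same as at 12 h, and for neither time did it pass.

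Over the class at 48 h, 8 of 64 star strands (12.5%) had an unadjusted p under 0.05, beside 17.7% of all probes tested. Only miR-330* had samples that did not overlap between arteries, beside 4.67% of all probes tested (3.19% higher on the left). Fitted changes split evenly, with 32 above and 32 below 0 and a median of -0.01, and the median over all 407 probes was 0.00. The median SD within a group was 0.98, beside 0.91 over all probes tested.

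Whether both strands of a hairpin changed alike was tested as the difference between their left-right changes, adjusted over all arm pairs on the array with both probes tested, hairpins named 5p and 3p included. At 12 h 55 star and main pairs were tested among 84 arm pairs, and none passed (limma; 6 star pairs had an unadjusted p under 0.05). In the background 0% of the arm pairs passed and 10.7% had an unadjusted p under 0.05. miR-872 measured 9.28, 9.39 and 8.42 on the left and 8.51, 8.83 and 8.63 on the right, which overlap (0.38 ± 0.40, adjusted p = 0.777). The rise of miR-872* therefore exceeded that of its main strand by 3.13 ± 0.65 in the fit, but with an adjusted p of 0.22 over the pairs. In all 3 left samples star minus main lay above the right mean. For let-7d, the main strand differed by -0.02 ± 0.02 and the star strand by -0.24 ± 0.05 relative to it (adjusted p = 0.22). The muscle miRNA miR-133a was 1.11 ± 0.34 higher on the left (adjusted p = 0.363) while miR-133a* differed by -0.19 ± 0.39 (0.39 with the 75th percentile scaling), a gap of -1.30 ± 0.41 (adjusted p = 0.279; -0.75 with that scaling, adjusted p = 0.667). miR-93* exceeded miR-93 by 1.21 ± 0.39 and miR-674* lay below miR-674 by 5.26 ± 1.71 (log2, both adjusted p = 0.279), and miR-26b* exceeded miR-26b by 2.48 ± 0.92 (adjusted p = 0.34). The main strands let-7d (14.35 ± 0.02 left and 14.37 ± 0.01 right, SD) and miR-26b (14.02 ± 0.02 and 14.06 ± 0.06) were bright with little spread. Whether a ceiling of the signal held down their changes was not tested.

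At 48 h 53 star and main pairs were tested among 80 arm pairs and 2 passed, miR-146b and let-7d, in which the main strand passed the test of left against right and the star strand did not. In the background 2.5% of the arm pairs passed and 22.5% had an unadjusted p under 0.05, against 15 of 53 star pairs. miR-146b, which is induced by NF-kB and damps innate immune signalling through Traf6 and Irak1, ranged from 5.72 through 11.66 to 12.36 on the left and from 5.78 through 6.03 to 6.83 on the right. In 5 of 6 left samples it was above every right sample, and left sample 1 lay with the right (4.63 ± 0.97, adjusted p = 0.0276). miR-146b* ranged from 7.67 through 7.99 to 9.16 on the left and from 7.37 through 8.48 to 10.55 on the right and was detected on all 12 arrays (-0.39 ± 0.50, adjusted p = 0.73). The change of miR-146b* minus that of miR-146b was -5.02 ± 1.12 (limma adjusted p = 0.0468), with 6 of 6 left samples below the right mean. The summed leukocyte signal above was also higher on the left at this time (14.24 to 14.80 against 11.75 to 14.17). The median of miR-150 alone was lower on the left (11.50 against 12.43). The part of leukocytes in the change of miR-146b was not tested.

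let-7d ranged from 12.46 through 12.98 to 13.62 on the left and from 13.47 through 14.03 to 14.38 on the right, with 6 of 6 left samples below the right mean (-1.02 ± 0.20, adjusted p = 0.0227). let-7d* ranged from 14.00 through 14.18 to 14.27 on the left and from 13.88 through 14.14 to 14.38 on the right, which is near complete overlap (0.05 ± 0.09, adjusted p = 0.828). The change of let-7d* minus that of let-7d was 1.07 ± 0.25 (limma adjusted p = 0.0468), with 6 of 6 left samples above the right mean. Both pair calls lie at the threshold: leaving out 1 sample kept the call for miR-146b in 6 of 12 fits (adjusted p from 0.000257 without left sample 1 to 0.124 without right sample 1) and for let-7d in 3 of 12 (0.0148 without left sample 4 to 0.124 without right sample 1). For miR-146b it ended without left sample 3, 4 or 5 or right sample 1, 2 or 6. For let-7d it held only without left sample 4 or right sample 3 or 4. Neither call held when right samples 1 and 4 were both left out (both adjusted p = 0.123), with no detection filter (both 0.137) or with no intensity trend (0.0509 for miR-146b and 0.13 for let-7d). With the stricter filter let-7d missed the threshold (0.0515) and the pair of miR-146b was not tested. Both calls also ended with the sample number fitted as a block.

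**Figure D3:**
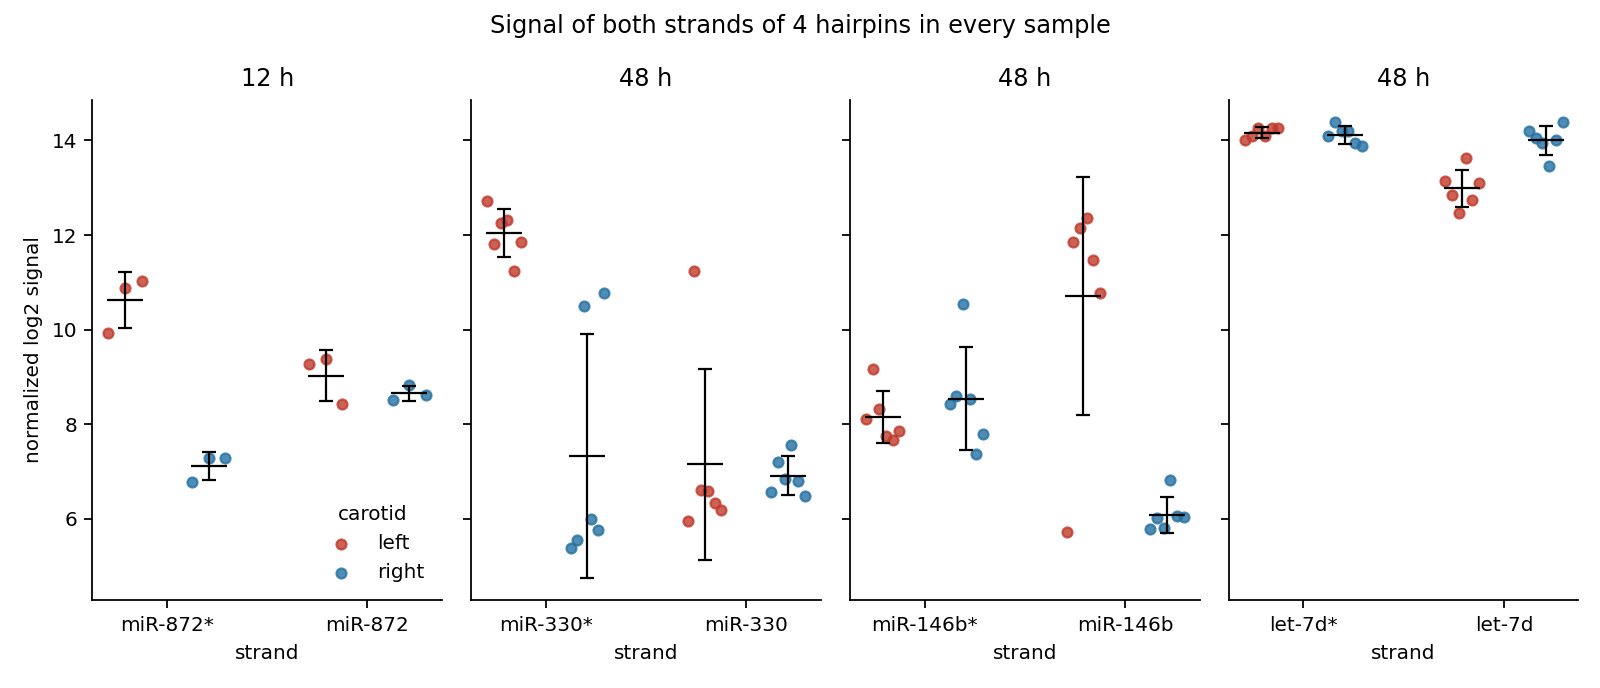
Normalized log2 signal (vertical axis) of both strands of 4 hairpins in every left (red) and right (blue) sample, with the mean and 1 SD as black bars (n = 3 per artery at 12 h, n = 6 at 48 h); heights are to be compared between arteries within a strand and not between strands. The left and right points separate for miR-872* and miR-330*, and for miR-146b in 5 of 6 left samples, while miR-146b* and let-7d* overlap.

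Several further pairs at 48 h missed the threshold. let-7i* differed from let-7i by 4.16 ± 1.16 and miR-7a* from miR-7a by 2.57 ± 0.74 (both adjusted p = 0.0695). In the first the star strand differed by 3.39 and the main strand by -0.77 ± 0.49. Left sample 3 of let-7i stood at 10.06 (medians 12.94 left and 13.30 right), and without that sample the gap was 3.41. In the second pair the main strand differed by -2.24 ± 0.70 (adjusted p = 0.111) and the star strand by 0.33 ± 0.47. miR-330* exceeded miR-330 by 4.45 ± 1.37 (adjusted p = 0.0843): miR-330 was detected on 1 left and 5 right arrays and differed by 0.25 ± 0.79. Left sample 2 of miR-330 stood at 11.25, while the other 5 left samples lay below the right mean (medians 6.46 left and 6.82 right). The change of miR-200c* minus that of miR-200c was -4.40 ± 1.37 (adjusted p = 0.0843). Here miR-200c was detected on 6 left and 2 right arrays (4.37 ± 1.23, adjusted p = 0.0898) and miR-200c* on all 12 (-0.03 ± 0.38). miR-200c is itself one of the epithelial markers above. The change of miR-877* minus that of miR-877 was -6.16 ± 2.06 (adjusted p = 0.111), with a fitted change below 0 for the star strand and above 0 for the main strand (2.15 ± 1.13).

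Across hairpins the changes of the strands showed little relation. The sign was the same in 35 of 55 pairs at 12 h (63.6%) and in 24 of 53 at 48 h (45.3%). As a description across hairpins measured on the same arrays, Pearson's r was 0.06 at 12 h and -0.21 at 48 h, and Spearman's rho 0.15 and -0.10. The star strand had the larger absolute change in 39 of 55 pairs at 12 h (median 0.40 against 0.15 for the main strands) and in 29 of 53 at 48 h (0.54 against 0.49). Star strands also spread more within a group at 12 h. The median SD was 0.58 for those tested and 0.34 for the main strands tested, and 0.98 and 0.91 at 48 h. The part of this spread in the larger changes was not tested. Some main strands joined a high signal with almost no spread at 12 h. Examples were let-7b (14.51 ± 0.00 left and 14.51 ± 0.01 right, SD) and let-7d (14.35 ± 0.02 and 14.37 ± 0.01). Whether a ceiling of the signal held down the changes of main strands was not tested. For the hairpins named 5p and 3p, the sign was the same in 11 of 29 and in 14 of 27.

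**Figure D4:**
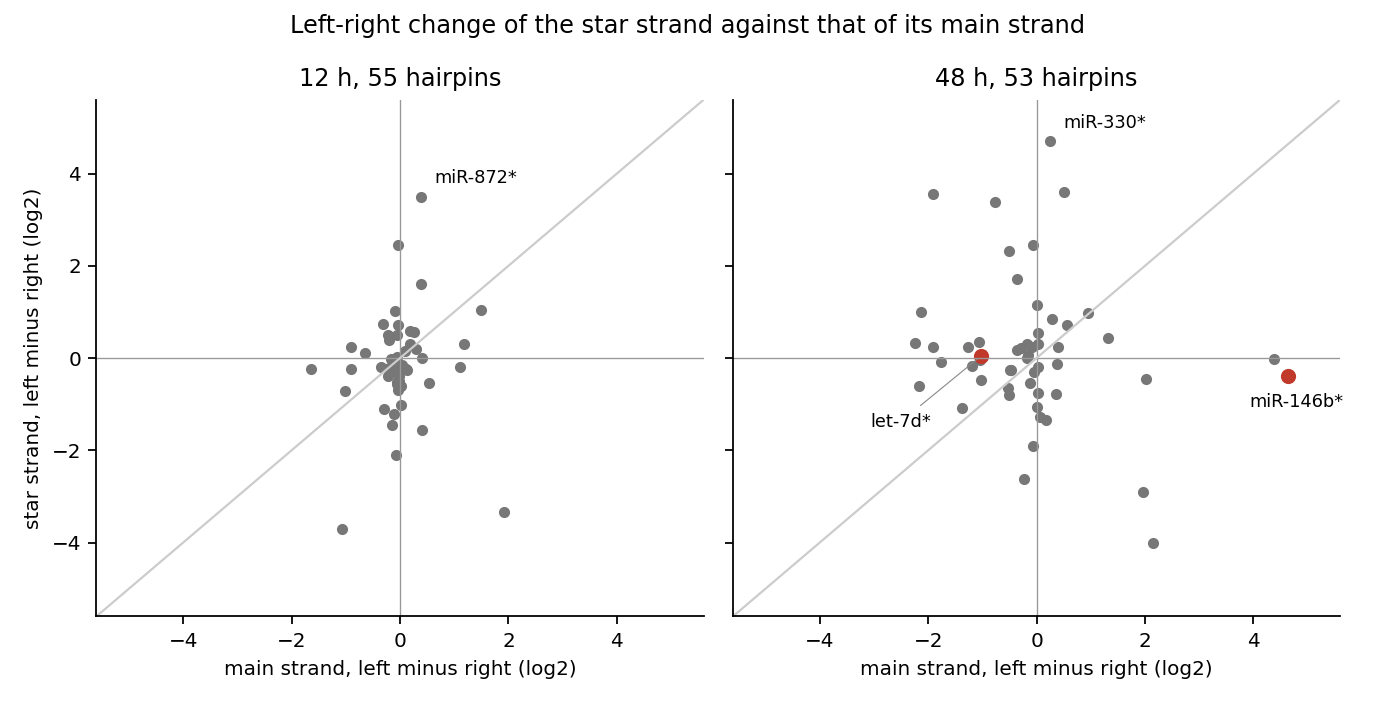
Left minus right change (log2) of the star strand (vertical axis) against that of the main strand of the same hairpin (horizontal axis) at 12 h (55 hairpins) and 48 h (53 hairpins), with the line of equal change and the pairs that passed the test in red. miR-872* and miR-330* lie high above 0 with a main strand near 0, and miR-146b* lies near 0 with a main strand at 4.63. The value of miR-330 includes left sample 2 at 11.25, and its medians were 6.46 left and 6.82 right.

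Grouped by hairpin family, no star strand of the groups below passed the test of left against right, and miR-872* and miR-330* belong to none of them. Members with an unadjusted p under 0.05 were let-7d*, miR-93* and miR-26b* at 12 h and let-7i*, miR-17*, miR-30c-1* and miR-293* at 48 h. Of the 7 let-7 star strands, 5 were tested at 12 h (1 above 0, 4 below, median -0.26, though 3 above under the 75th percentile scaling) and 4 at 48 h (4 above 0, median 0.28, though 3 above under that scaling). let-7b* and let-7g* were detected on every array with changes of -0.49 ± 0.63 and 0.03 ± 0.30 at 12 h and 0.22 ± 0.38 and 0.35 ± 0.44 at 48 h, whereas let-7c-1* was detected on none. let-7c-2*/let-7a* was detected on all 12 arrays at 12 h and on 2 at 48 h. Of the 5 miR-30 star strands, 4 were tested at each time, with 1 above 0 at 12 h and 2 at 48 h (median -0.11 at both; -0.12 and -0.29 under that scaling).

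Of the 8 star strands of the miR-17-92 cluster and its paralogs, 6 were tested at 12 h (4 above 0, median 0.10) and 7 at 48 h (4 above 0, median 0.44). Under the 75th percentile scaling the medians were 0.64 at 12 h, with 5 above 0, and 0.11 at 48 h, so their order turned. miR-93* differed by 0.98 ± 0.51 at 48 h (adjusted p = 0.307), with 5 of 6 left samples above the right mean, and so had the same sign at both times. The main strand of that hairpin was 0.95 ± 0.28 higher on the left at 48 h (adjusted p = 0.104), with no overlap. miR-18a*, miR-19a* and miR-92a* differed by 0.72 ± 0.98, -0.61 ± 0.51 and -0.75 ± 0.47 at 48 h.

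Of 5 star strands from hairpins typical of endothelium and smooth muscle, 4 were tested at each time. All 4 were below 0 at 12 h (median -0.48, but 2 of 4 under the 75th percentile scaling) and 3 of 4 at 48 h (2 of 4 under that scaling). miR-10a* differed by -0.01 ± 0.40 and -0.18 ± 0.64 at the 2 times and miR-10b* by -0.19 ± 0.31 and -0.50 ± 0.34. miR-125b* lay below the right samples at 12 h (7.59, 7.29 and 7.21 against 7.62, 8.04 and 8.73, without overlap; -0.76 ± 0.46, adjusted p = 0.518), and differed by 1.26 ± 0.74 at 48 h (adjusted p = 0.363). miR-145*, the passenger of the smooth muscle miRNA miR-145, was detected on no array, although miR-145 was detected on all.

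Star strands of the miR-15/16, miR-23/24/27, miR-26 and miR-29 families numbered 11, with 9 tested at each time. At 12 h 2 were above and 7 below 0 (median -0.53, but 3 and 6 with a median of -0.15 under the 75th percentile scaling), and at 48 h 5 were above and 4 below (median 0.07). miR-27a* and miR-29a* were detected on every array, with changes of -0.56 ± 0.40 and -0.01 ± 0.34 at 12 h and -0.31 ± 0.57 and 0.25 ± 0.37 at 48 h. miR-16* was detected on 2 arrays at 12 h and on 5 at 48 h, 4 of them left (2.46 ± 1.16, adjusted p = 0.272).

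Of the 6 star strands of the embryonic miR-290 and miR-302 clusters, 4 were tested at 12 h, all below 0 (median -0.66, but -0.10 under the 75th percentile scaling), and 3 at 48 h, with 1 above 0. The imprinted Dlk1-Dio3 region gave 13 star strands, of which 3 were tested at each time; their medians were 0.40 and 0.25 (0.84 and 0.52 under that scaling). miR-382* was the one detected on every array (0.30 ± 0.41 at 12 h, -0.65 ± 0.55 at 48 h). miR-433* was detected on 3 arrays at 12 h and on all 12 at 48 h (0.25 ± 0.49). None of the 3 star strands of the Sfmbt2 intron cluster was detected often enough to test. Of the inflammatory and leukocyte hairpins, miR-21* was detected on 2 arrays at 12 h and on all 12 at 48 h (0.31 ± 0.59, adjusted p = 0.835), and miR-9* on none.

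Whether the left-right change itself differed between 12 and 48 h was tested for 363 probes tested at both times, 55 of them star strands. No star strand passed (limma; 4 had an unadjusted p under 0.05), and in the background 0% of probes passed and 7.99% had an unadjusted p under 0.05. The star strand with the smallest p was miR-742*, whose change was 3.99 ± 1.05 higher at 48 h than at 12 h (adjusted p = 0.21). At 48 h miR-742* overlapped between arteries, from 12.08 through 12.80 to 13.19 on the left and from 11.63 through 12.28 to 13.24 on the right (0.29 ± 0.31). For miR-872*, which passed at 12 h and not at 48 h, the change at 48 h minus that at 12 h was -3.33 ± 1.68 (adjusted p = 0.584), so a dependence on time was not shown. miR-330* was not tested at 12 h, so no such test exists for it.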

How the data were processed

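RNA of the carotid intima (24 samples) was read on Illumina miRNA bead arrays. The deposited tables, 1 per time, give per probe a signal intensity on a linear scale and a detection p-value, written by GenomeStudio 2010.2 (per the submitters' processing notes). Whether background was subtracted is not given in the labels or headers. The authors also deposited processed intensity values, used as an alternative. Array columns, which carry no time, were assigned through the rank order of those processed values. Star strands and the lists of hairpins and markers were chosen with earlier results of these data known.

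Each time's deposited intensities were corrected for background and normalized by quantiles (neqc, limma 3.58.1, R 4.3.3; offset 16, log2). Arrays of one artery with rank correlations above 0.98 were averaged. Testing required detection (p under 0.05) on 3 or more arrays of either artery, with repeat arrays counted singly. Left and right were compared with lmFit and eBayes (intensity trend, two-sided), and p-values were Benjamini-Hochberg adjusted over all probes tested, or over all arm pairs, with 0.05 as the threshold. The same fit on differences between arms, and a contrast of the times, gave the other tests; the fits were tested on simulated data. "At least N-fold" sets the bright mean against, per array, the higher of the probe's own signal and the lowest signal among detected probes. Leaving out a sample kept the normalization over all arrays.

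The strands named were those past the threshold, the 5 with the smallest p in each direction at each time, the arm pairs past the threshold and the 3 with the smallest p in each direction, and the 5 with the highest mean signal at each time; members of hairpin lists and the detection extremes were named besides. The number of arrays limits the precision. Alternatives were another scaling, no background correction, the authors' values, other detection filters, no trend, a block on the sample number, every array as a sample and left-out samples. Slides and scan dates were not used here. miR-712* is not reported here.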

Additional observations from a re-analysis of the deposited data

Results flagged for a closer look

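Among 52 groups of 6 samples at 48 h (the 25 named star strands and the number of star strands detected, each in both arteries), 8 held 1 sample far from the other 5, by a test that chance passes in about 1 in 20 groups. These strands were named partly for small p or high signal, they share arrays, and some switched between low and high signal. The 8 of 52 are therefore not to be set against that rate. The 5 low ones were miR-140* in right sample 4 at 5.02 (median of the others 13.27, normalized log2 signal), miR-20a* in left sample 2 at 10.71 (13.39), miR-293* in left sample 2 at 7.72 (8.68), miR-30c-1* in left sample 6 at 5.27 (11.91) and miR-877* in right sample 5 at 5.55 (12.00). The 3 high ones were let-7i* in right sample 3 at 10.23 (5.74), miR-22* in left sample 6 at 10.23 (5.62) and miR-877* in left sample 1 at 11.96 (5.41). miR-877* was the strand with such a sample in both arteries, and left samples 2 and 6 each held more than 1 of them. The groups of 3 samples at 12 h and the main strands were not examined in this way.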

How the results depend on the processing

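The count of star strands that passed at 12 h (1) was 0 with no background correction, 0 with the authors' processed values, 0 with no detection filter, 6 with every array as a sample, and 0 to 1 with a sample left out. At 48 h (1) it was 4 with no detection filter and 0 to 2 with a sample left out. The 3 strands added with no filter (miR-138*, miR-300* and miR-302b*) were detected on no array at 48 h, so they are no measured change. The count of arm pairs at 12 h (0) was 6 with every array as a sample. At 48 h (2) it was 0 with no detection filter, 0 with the stricter one, 0 with no intensity trend, 0 when both right samples with the fewest detected probes (1 and 4) were left out, and 0 to 5 with a sample left out. For the change between times (0) it was 2 with no detection filter, 1 with every array as a sample, and 0 to 1 with a sample left out. With every array as a sample, repeat arrays count as independent, so those p-values are too small.

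With the sample number as a replicate block the count was 0 star strands at 12 h, 0 star strands at 48 h and 0 arm pairs at 48 h. The labels do not say whether same-numbered samples come from the same animals. Deviations of same-numbered samples correlated at 0.0245 to 0.0599 at 12 h and at -0.175 to 0.0242 at 48 h. With so few samples these values cannot decide it.

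The median change at 12 h (-0.21) was 0.09 under the 75th percentile scaling and -0.30 to -0.09 with a sample left out; at 48 h (-0.01) leaving out a sample gave -0.09 to 0.14. Under that scaling the sign turned at 12 h for miR-708* (0.04), miR-133a* (0.39) and miR-20a* (-0.06), and at 48 h for let-7d* (-0.13), miR-200c* (0.25) and miR-742* (-0.04). Leaving out a sample gave a range across 0 for miR-133a* (-0.35 to 0.07) and miR-20a* (-0.35 to 0.33) at 12 h, and for miR-146b* (-0.63 to 0.01), miR-200c* (-0.28 to 0.12) and miR-7a* (-0.01 to 0.60) at 48 h. None of these strands had passed on its own. The cause of these moves was not tested.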
